A study of Mus musculus with 12 samples.

Results

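The p53 target genes are described here in mouse blastocysts, through 10 listed genes: Trp53 itself, Cdkn1a, Mdm2, Ccng1, Trp53inp1, Pmaip1, Bbc3, Sesn2, Btg2 and Phlda3. Members were all probe sets that the platform annotation pairs with exactly 1 of these genes. There were 17 of them, of 9 genes, among 45037 probe sets besides array controls, and 16 of the 17 reached the signal of 100, averaged over the arrays, that testing required, as did 27808 probe sets in all. Mdm2 1457929_at was the exception. No probe set was paired with Trp53 in the annotation used, so its own level was not analysed here. Each gene's values are given per probe set, a group of short probes against 1 transcript region, and levels of different probe sets are not set against each other.

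The study measured 12 arrays in 3 groups of 4: blastocysts cultured in Ca2+-free medium (Ca-free), blastocysts that received 20 Ca2+ pulses (20 pulses), and normal blastocysts (control). The study's title concerns Ca2+ oscillations of the fertilised egg, and each comparison asks whether p53 targets differed at the blastocyst stage after the Ca2+ signal was altered. The sources used here do not give the strain, the embryos behind an array, the form of a pulse or the length of the culture. Nor do the labels state that replicates were separate collections of embryos. The p-values therefore reflect the spread among these samples alone, and precision is limited by 4 arrays a group. Signals are MAS5 intensities on a linear scale, rescaled so that the 2% trimmed mean of each array is 500. A log2 change is on the scale of log2(signal + 32), which understates changes of dim probe sets, and a probe set was called at a Benjamini-Hochberg adjusted p under 0.05 in limma over all 27808 probe sets.

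p53 is a transcription factor that is kept scarce by the ubiquitin ligase Mdm2 and accumulates when DNA is damaged or cells are stressed. It then binds response elements in its targets, which halt the cell cycle (Cdkn1a, Btg2), trigger apoptosis (Bbc3, Pmaip1), adjust metabolism and survival signalling (Sesn2, Phlda3) or feed back on p53 itself (Mdm2, Ccng1, Trp53inp1). In early embryos p53 activity is known to respond to culture stress, and Mdm2 is needed to hold it down, since mouse embryos without Mdm2 die around implantation unless they also lack p53.

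Markers of each blastocyst lineage had signal: all 6 epiblast, all 6 trophectoderm and all 5 primitive endoderm markers passed the signal minimum. That minimum is an average over all arrays and does not show presence on a single array. The summed epiblast signal ranged from 14270 to 17344 on Ca-free arrays, 14564 to 17038 after 20 pulses and 13820 to 15897 on control arrays. Ca-free arrays stood apart on the first principal component (40.2% of the variance). Their deposited median signal was 38.3 to 39.2, against 47.4 to 53.7 after 20 pulses and 49.4 to 53.05 in control, at the same trimmed mean. The scaling therefore decides how many probe sets are higher or lower: in Ca-free medium against control 2944 were called higher and 8249 lower with the trimmed mean, 768 and 13773 when arrays were scaled to the hybridization controls, 10259 and 1518 when scaled to a common median, and 2738 and 2760 after quantile normalization. The median log2 change of all tested probe sets was -0.18, -0.36, 0.20 and -0.02 under these scalings, in the same order. The Ca-free arrays also fell into pairs on the third component (9.89% of the variance), with arrays 1 and 4 at 20.5 and 25.5 and arrays 2 and 3 at -24.95 and -25.9. The labels name no batch.

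In Ca-free medium, Phlda3, Bbc3 and 1 of the Sesn2 probe sets were lower than in control: 3 of the 16 tested probe sets were called lower and 0 higher, where 29.7% and 10.6% of all tested probe sets were called in these directions (40.3% in all). At an unadjusted p under 0.05 there were 5, against 50.3% of all. The median log2 change of the 16 was -0.13, beside -0.18 for all tested probe sets. The members' share of calls was thus not above the background. That background depended on signal. With a signal minimum of 300, the median of all 14629 tested probe sets was -0.0016, with 2595 called higher and 3063 lower. All tested members but Cdkn1a 1421679_a_at and Trp53inp1 1416927_at averaged above 300. Some RNA quality measures moved with the group as well. The Gapdh 3'/5' signal ratio was 2.89 to 5.05 on Ca-free arrays, 5.70 to 7.58 after 20 pulses and 5.76 to 8.90 in control, and the 18S rRNA signal was 4003 to 5780 on Ca-free arrays, 2653 to 3688 after 20 pulses and 878 to 2559 in control. The Actb 3'/5' ratio did not move in this way. It was 1.690 to 1.88 on Ca-free arrays, 1.49 to 1.685 after 20 pulses and 1.59 to 2.69 in control. The part of these measures in the lower signals was not tested. In these bulk samples, fewer cells of a type and less RNA per cell cannot be told apart.

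**Figure D1:**
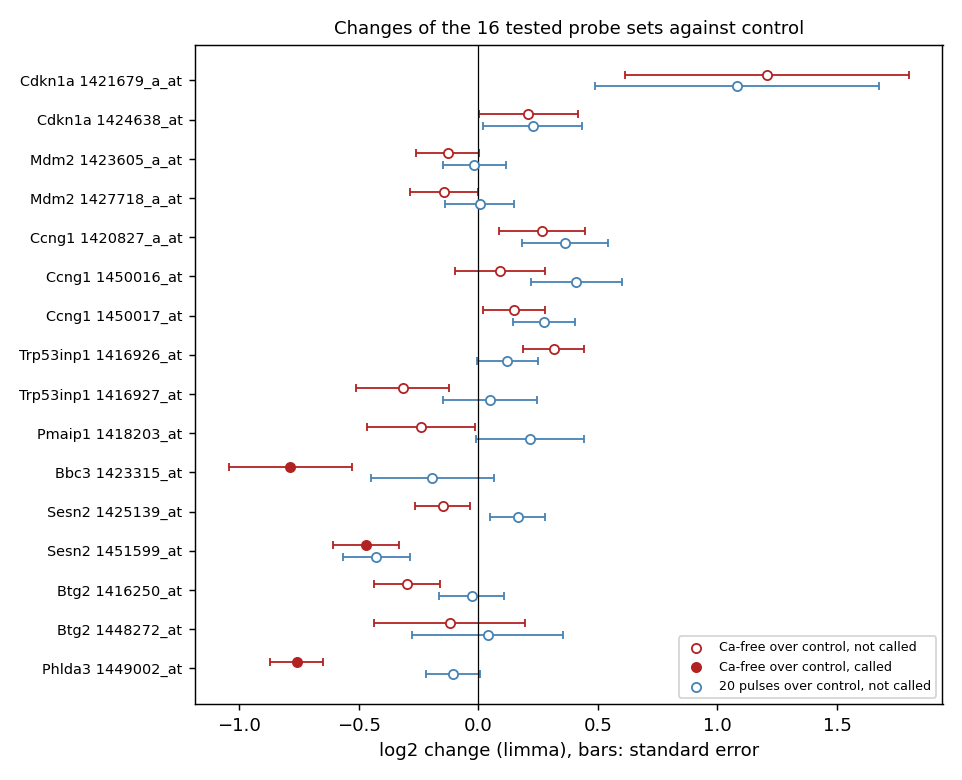
The log2 change of each tested probe set against control is plotted for Ca-free medium (red) and 20 pulses (blue), with bars for the limma standard error over 4 arrays a group and filled points for calls. The only filled points are Phlda3, Bbc3 and Sesn2 1451599_at in Ca-free medium, all left of 0.

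Phlda3 encodes a pleckstrin-homology protein that competes with the kinase Akt for membrane lipids and so restrains survival signalling. Its signal (1449002_at) was 391, 395, 408 and 404 on the Ca-free arrays, 716, 730, 665 and 501 after 20 pulses, and 709, 655, 644 and 794 on the control arrays. Every Ca-free array lay below every array of both other groups, which overlapped each other. Such complete separation downward from control was found for 2 of the 16 members, Phlda3 and Sesn2 1451599_at, and for 27% of all tested probe sets. The means were 399.6 ± 7.63 in Ca-free medium, 653 ± 105 after 20 pulses and 700.5 ± 68.5 in control (SD, n = 4 each). Phlda3 fell by 0.76 on the log2 scale (SE 0.11) in Ca-free medium against control (limma, Benjamini-Hochberg adjusted p = 4.35e-04). The call held under every scaling, from a log2 change of -0.95 with the hybridization controls to -0.37 with median scaling. With only Ca-free arrays 1 and 4 the change was -0.77, and with only arrays 2 and 3 it was -0.75.

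Bbc3 encodes PUMA, a BH3-only protein that sets off mitochondrial apoptosis. Its signal was 363, 125, 210 and 286 on the Ca-free arrays, 476, 367, 299 and 335 after 20 pulses, and 485, 264, 429 and 563 on the control arrays. Control 2 lay below the brightest Ca-free arrays, so the groups overlapped. Bbc3 fell by 0.78 (SE 0.26) on the log2 scale in Ca-free medium against control (limma, adjusted p = 0.0252). The call ended with quantile normalization (-0.53, adjusted p = 0.15), with median scaling (-0.42, adjusted p = 0.21), and without Ca-free array 2 (-0.54, adjusted p = 0.0765), Ca-free array 3 (-0.74, adjusted p = 0.0526), control 1 (-0.72, adjusted p = 0.064) or control 4 (-0.65, adjusted p = 0.0724), all in limma.

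Sesn2 encodes a stress-induced sestrin that lowers mTORC1 activity, and its probe sets did not behave alike. For 1451599_at the signal was 530, 543, 528 and 447 on the Ca-free arrays, 666, 416, 617 and 447 after 20 pulses, and 802, 776, 681 and 627 on the control arrays. All Ca-free arrays lay below all controls, and 20 pulses spread across both. The probe set fell by 0.47 on the log2 scale (SE 0.14) in Ca-free medium against control (limma, adjusted p = 0.0158). Median scaling moved this to -0.08 (adjusted p = 0.66) and quantile normalization to -0.39 (adjusted p = 0.0673), both without a call in limma. For 1425139_at the signal was 967, 621, 758 and 843 on the Ca-free arrays, 984, 977, 995 and 993 after 20 pulses, and 947, 980, 776 and 820 in control, with a log2 change of -0.15 (SE 0.12, limma adjusted p = 0.31) in Ca-free medium against control.

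Some markers of cells outside the embryo were also lower on Ca-free arrays, as read with the trimmed mean alone. The deposited median of all probe sets was lower there too, at 38.3 to 39.2 against 49.4 to 53.05 in control. Summed over 6 oviduct and uterine epithelium markers, 5 of which passed the minimum (Foxa2 did not), signal was 577 to 845 on Ca-free arrays, 984 to 1163 after 20 pulses and 1186 to 1346 in control. The sum over 5 cumulus and granulosa markers, of which Amh, Fshr, Ptx3 and Has2 were under the minimum, was 283 to 337, 392 to 548 and 518 to 620 in the same groups. The sum over 4 fibroblast markers (Thy1 under the minimum) was 561 to 714, 597 to 807 and 828 to 880. The sum over 3 blood markers (Ptprc under the minimum) was 383 to 440, 566 to 624 and 506 to 649, and over 6 oocyte markers (Mos under the minimum) 739 to 1050, 869 to 1272 and 1031 to 1201. The part of such cells in the lower Phlda3, Bbc3 and Sesn2 signals was not tested, nor was that of the scaling in these sums.

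The pattern that most members shared lay inside the Ca-free group. Ca-free arrays 1 and 4 were both brighter than arrays 2 and 3 in 13 of the 16 tested probe sets, covering 8 of the 9 genes, where 24.9% of all tested probe sets had that order. The reverse order held in 1 of the 16, against 26% of all. The ratio of the means of arrays 1 and 4 over arrays 2 and 3 had a median of 1.48 over the members and 0.994 over all tested probe sets, and was at least 1.5 in 7 of the 16 (5 genes), against 5.38% of all. The count was 13 under quantile, median and hybridization control scaling as well, where 25%, 23% and 25.9% of all tested probe sets had that order. As these scalings moved the share of all probe sets little, the unchanged count is a weak check. The pairs are no groups of the labels but were picked from the arrays' own values, and no test was made between them. Probe sets of the same gene are not separate instances of the order.

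**Figure D2:**
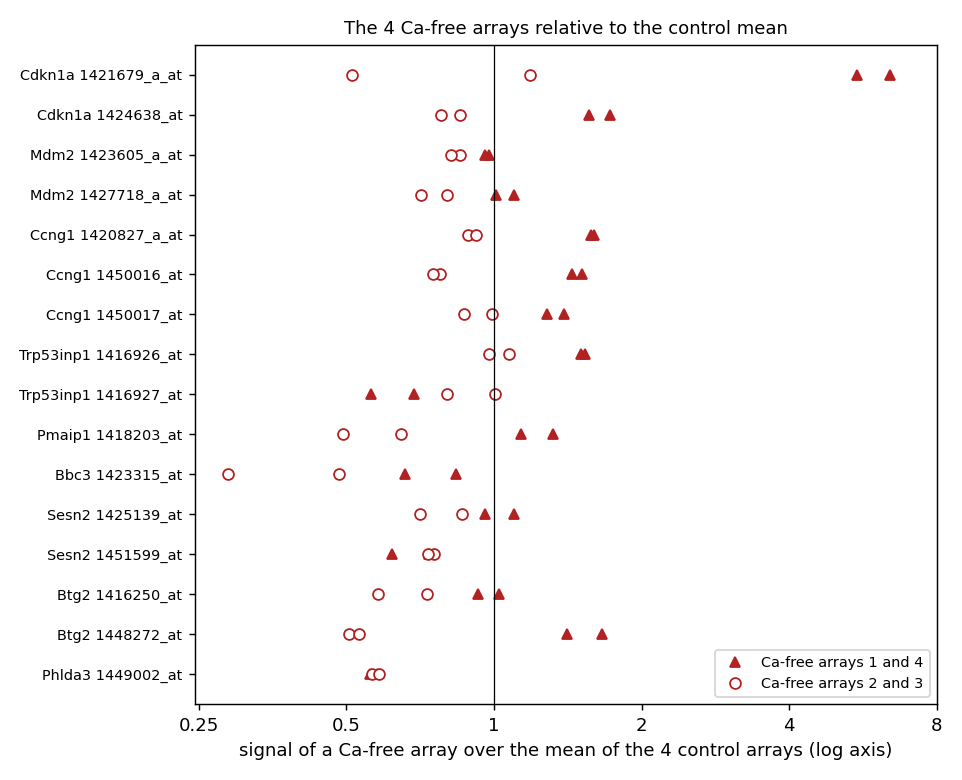
The signal of each Ca-free array over the mean of the 4 control arrays is plotted on a log axis for the 16 tested probe sets, with triangles for Ca-free arrays 1 and 4 and open circles for arrays 2 and 3. Triangles lie right of both circles in 13 rows. Phlda3 and Sesn2 1451599_at do not separate, and Trp53inp1 1416927_at has the reverse order.

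Cdkn1a encodes p21, the cyclin-dependent kinase inhibitor through which p53 halts the cycle, and had a wide spread within the groups. For 1421679_a_at the signal was 689.7, 55.2, 127 and 591 on the Ca-free arrays, 167, 303, 130.1 and 376 after 20 pulses, and 40.7, 38.6, 174 and 177 on the control arrays. Arrays 1 and 4 of the Ca-free group exceeded every control, while arrays 2 and 3 lay among the controls. The mean was 366 ± 321 in Ca-free medium, 244 ± 115 after 20 pulses and 108 ± 78.4 in control (SD, n = 4 each), and the log2 change of 1.21 (SE 0.59) in Ca-free medium against control did not pass (limma, adjusted p = 0.12). Leaving out single arrays moved it between 0.75 and 1.77, and it passed without Ca-free array 2 (limma, adjusted p = 0.0202).

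The second Cdkn1a probe set, 1424638_at, gave 1109, 605, 552 and 1225 on the Ca-free arrays, 727, 999, 777 and 854 after 20 pulses, and 776, 603, 731 and 729 in control. Again arrays 1 and 4 were the brightest of the 12, and arrays 2 and 3 were near or below the lowest control. Ca-free medium differed from control by 0.21 on the log2 scale (SE 0.21, limma adjusted p = 0.43), and by 0.61 with median scaling, which called it higher (limma, adjusted p = 0.0308). The control arrays were themselves split for 1421679_a_at, with controls 3 and 4 above controls 1 and 2. The Actb 3'/5' signal ratio, a measure of RNA integrity and labelling, was 2.69 and 2.64 on controls 3 and 4 and 1.59 and 1.67 on controls 1 and 2, and its part in that split was not tested. The split moved the change of 1421679_a_at in Ca-free medium to 1.97 against controls 1 and 2 alone (limma, adjusted p = 0.0453) and to 0.44 against controls 3 and 4 alone (limma, adjusted p = 0.65). After 20 pulses the values were 1.85 and 0.31, neither called.

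Ccng1 encodes cyclin G1, which recruits a phosphatase to Mdm2. Its 3 probe sets all put Ca-free arrays 1 and 4 above arrays 2 and 3, but 1420827_a_at and 1450016_at ranked the arrays after 20 pulses in opposite orders. For 1420827_a_at the signal was 4585, 2569.9, 2662 and 4638 on the Ca-free arrays, 3195, 4001, 3396 and 4378 after 20 pulses, and 2642, 2509, 3115 and 3342 in control. For 1450016_at it was 2512, 1351, 1303 and 2631 on the Ca-free arrays, 2572, 2342, 2359 and 2022 after 20 pulses, and 1716, 1548, 1828 and 1862 in control. In both, Ca-free arrays 1 and 4 were above all controls, and for 1450016_at arrays 2 and 3 were below all controls. The ratio of arrays 1 and 4 over arrays 2 and 3 was 1.76 and 1.94 for these probe sets and 1.44 for 1450017_at. Against control, the log2 changes in Ca-free medium were 0.27, 0.09 and 0.15 for 1420827_a_at, 1450016_at and 1450017_at, and the limma adjusted p-values were 0.24, 0.72 and 0.36. With median scaling these changes were 0.67, 0.50 and 0.54 and all were called higher (limma, adjusted p = 0.0102, 0.0442 and 0.0049), while with the hybridization controls 1450016_at and 1450017_at were at -0.11 and -0.04.

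Among the 9 genes with a probe set, only Cdkn1a and Ccng1 had a p53 response element in the promoter windows searched. RefSeq windows on GRCm38.p6, from 250 bases before to 50 bases after a start, covered 10 starts of 7 member genes. For Trp53inp1 and Pmaip1 none was used. The window of Trp53, which had no probe set, was not counted among the member windows. The p53 response element was searched on both strands as a pair of 10-base units of the consensus, with up to 13 bases between them, the core C and G of each unit kept and up to 1 mismatch in all. It was found in 2 of the 10 member windows and in 0.627% of the 32851 windows of all genes, and without a mismatch in 1 of the 10 and 0.0731% of all. A single 10-base unit was found in 3 of the 10 and in 8.36% of all. A match describes letters, not binding. The 250 bases before the start are shown for Cdkn1a (upstream start, chr17:29090729-29090978, + strand) and Ccng1 (chr11:40755287-40755536, - strand), which hold the matched elements, and for Phlda3 (chr1:135765835-135766084, + strand), the member with the smallest adjusted p in Ca-free medium. Capitals mark the 10-base units of the matched elements.
Cdkn1a: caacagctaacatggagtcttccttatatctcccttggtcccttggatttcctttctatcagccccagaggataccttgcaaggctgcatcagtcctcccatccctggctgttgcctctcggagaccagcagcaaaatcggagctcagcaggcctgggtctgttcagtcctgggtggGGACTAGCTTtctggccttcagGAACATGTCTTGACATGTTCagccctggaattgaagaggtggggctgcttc
Ccng1: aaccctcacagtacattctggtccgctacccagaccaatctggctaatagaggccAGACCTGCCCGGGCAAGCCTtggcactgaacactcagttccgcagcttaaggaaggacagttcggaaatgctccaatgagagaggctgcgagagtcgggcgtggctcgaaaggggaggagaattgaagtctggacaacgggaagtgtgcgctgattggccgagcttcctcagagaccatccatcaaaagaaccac
Phlda3: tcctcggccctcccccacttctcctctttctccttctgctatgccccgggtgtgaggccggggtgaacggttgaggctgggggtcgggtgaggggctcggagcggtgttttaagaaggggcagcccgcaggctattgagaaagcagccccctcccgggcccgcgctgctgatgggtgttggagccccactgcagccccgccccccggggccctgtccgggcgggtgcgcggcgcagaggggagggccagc
In the Cdkn1a window the elements lie 73 to 42 bases before the start (0 mismatches, 12 bases between the units) and 51 to 32 bases before it (1 mismatch, no bases between), and they overlap in GAACATGTCT. The other Cdkn1a start, 2790 bases downstream, had no match in its window. The Ccng1 element, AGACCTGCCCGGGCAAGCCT, lies 195 to 176 bases before the start with 1 mismatch. The Phlda3 window had no match, and the letters in this window say nothing about elements elsewhere in the gene. The windows of Bbc3, Btg2, Mdm2 and Sesn2 had no matched element either, and they too say nothing about elements elsewhere in these genes. Ca-free arrays 1 and 4 were above arrays 2 and 3 in all their tested probe sets but Sesn2 1451599_at. A link between matched elements and the order of the arrays was not tested.

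Btg2 encodes an antiproliferative cofactor of mRNA deadenylation. For 1448272_at the signal was 569, 205, 214 and 669.8 on the Ca-free arrays, 285, 601, 425 and 383 after 20 pulses, and 392, 532, 353 and 338 in control. Arrays 1 and 4 lay above all controls and arrays 2 and 3 below all controls, a ratio of 2.96 between the pairs, so that the mean was 414 ± 240.4 in Ca-free medium against 404 ± 88.2 in control (SD, n = 4 each) and the log2 change was -0.12 (SE 0.32, limma adjusted p = 0.78). For 1416250_at the signal was 411, 234, 294 and 374 on the Ca-free arrays and 423, 419, 373 and 394 in control, with a ratio of 1.49 between the pairs and a log2 change of -0.30 (SE 0.14, limma adjusted p = 0.0948).

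Pmaip1 encodes NOXA, the other BH3-only protein among the members. Its signal was 621, 231, 304 and 533 on the Ca-free arrays, 561, 584, 424 and 662 after 20 pulses, and 491, 452, 452 and 484 in control. Arrays 1 and 4 lay above all controls and arrays 2 and 3 below them, with a ratio of 2.16, and the log2 change was -0.24 (SE 0.23, limma adjusted p = 0.41) in Ca-free medium against control. Bbc3 had the same order within the Ca-free group, with a ratio of 1.94, but both pairs had means under the control mean.

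Trp53inp1 encodes a nuclear protein of stress and autophagy that promotes p53 activity, and its probe sets disagreed. For 1416926_at the signal was 2569.7, 1667, 1835 and 2616 on the Ca-free arrays, 1706, 1847, 1855.5 and 2037 after 20 pulses, and 1818, 1858, 1575 and 1586 in control. Arrays 1 and 4 were the brightest of the 12, and arrays 2 and 3 lay within the control range. The log2 change was 0.32 (SE 0.13, limma adjusted p = 0.0597), and it passed without Ca-free array 2 (0.43, limma adjusted p = 0.0125) or without Ca-free array 3 (0.39, limma adjusted p = 0.0346), and with median scaling (0.72, limma adjusted p = 4.19e-04). For the dimmer 1416927_at the order was reversed, with 122, 175, 219 and 149.7 on the Ca-free arrays and 242, 229.9, 272 and 128 in control. Its log2 change was -0.32 (SE 0.19, limma adjusted p = 0.20), and -0.52 without control 4 (limma adjusted p = 0.0255).

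Mdm2 encodes the ubiquitin ligase that marks p53 for destruction and is itself a p53 target. For 1423605_a_at the signal was 495, 439.7, 422 and 502 on the Ca-free arrays, 509.5, 449.7, 607 and 459 after 20 pulses, and 642, 522, 399 and 499 in control. For 1427718_a_at it was 567, 413, 365 and 521 on the Ca-free arrays, 443, 533, 499 and 590.0 after 20 pulses, and 605, 570.1, 452 and 438 in control. Both put Ca-free arrays 1 and 4 above arrays 2 and 3, by ratios of 1.16 and 1.40, with all groups overlapping. Their log2 changes against control were -0.13 (SE 0.13) and -0.14 (SE 0.14) in Ca-free medium, and the limma adjusted p-values were 0.46 and 0.44. Mdm2 1457929_at was under the signal minimum. It had 65.3, 10.1, 9.31 and 58.7 on the Ca-free arrays, 56.0, 87.3, 30.5 and 34.7 after 20 pulses, and 16.03 to 34.5 in control.

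**Figure D3:**
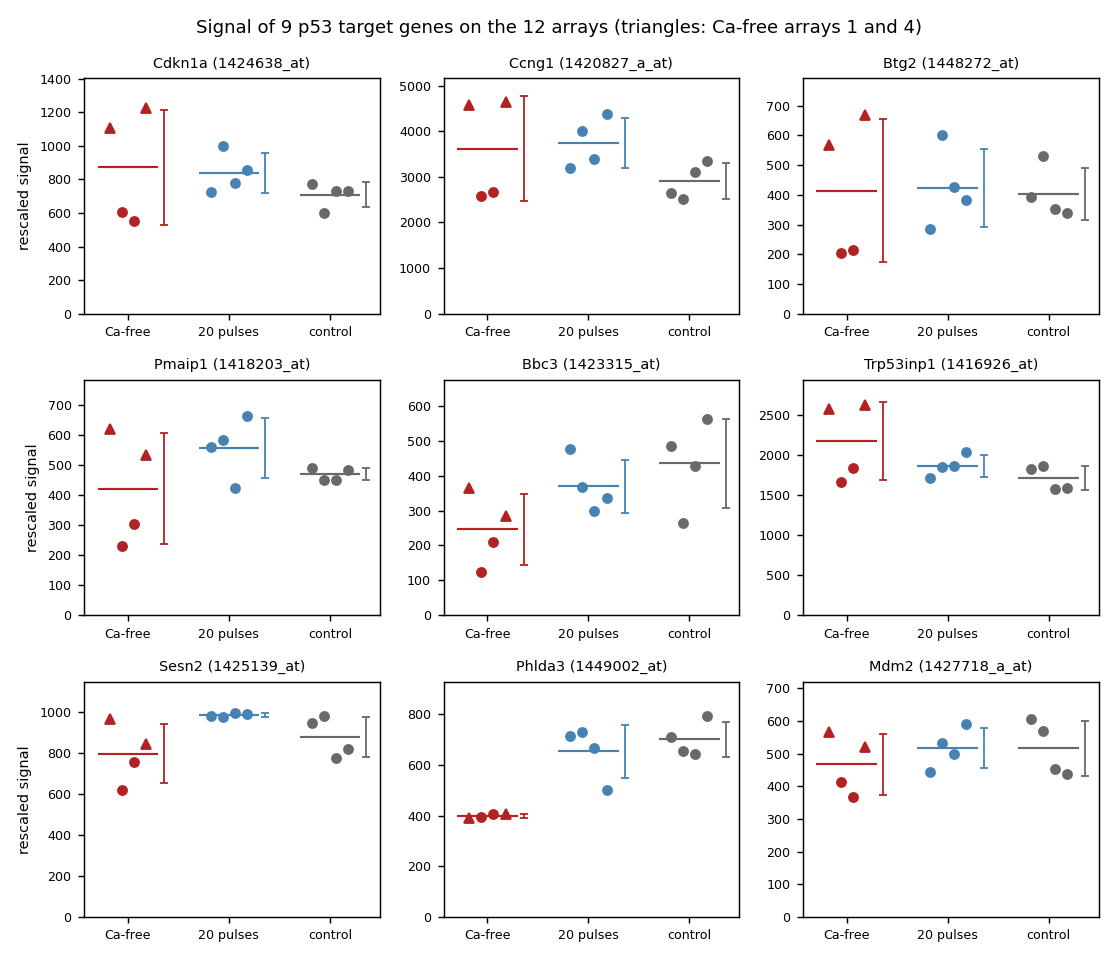
The rescaled signal of the brightest probe set of each of the 9 genes is shown for every array, with the Ca-free group at the left, 20 pulses in the middle and control at the right. Horizontal lines are means and bars are SD over 4 arrays; triangles mark Ca-free arrays 1 and 4, which lie above the Ca-free circles in every panel but that of Phlda3.

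RNA quality measures moved with the pairs. The Gapdh 3'/5' signal ratio was 5.05 and 4.73 on Ca-free arrays 1 and 4 and 3.10 and 2.89 on arrays 2 and 3. The 18S rRNA signal was 4003 and 4640.1 on arrays 1 and 4, against 5780 and 5237 on arrays 2 and 3. The Actb 3'/5' ratio did not separate them, at 1.78 and 1.88 on arrays 1 and 4 and 1.88 and 1.69 on arrays 2 and 3. Deposited medians were alike, at 39.2 and 38.4 on arrays 1 and 4 and 38.5 and 38.3 on arrays 2 and 3. Summed trophectoderm markers were 36806 and 38019.6 on arrays 1 and 4, against 37569 and 36481 on arrays 2 and 3. Summed primitive endoderm markers were 16053 and 16850 on arrays 1 and 4 and 15716 and 14044 on arrays 2 and 3, and summed epiblast markers 15833 and 14270 on arrays 1 and 4 and 17344 and 16164 on arrays 2 and 3. The part of RNA quality or of cell composition in the split was not tested.

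After 20 pulses, no member probe set was called against control in limma, where 1.48% of all tested probe sets were. At an unadjusted p under 0.05 there were 3 of 16, against 15.8% of all: 2 Ccng1 probe sets and Sesn2 1451599_at. Ccng1 was the only gene whose arrays separated. The arrays after 20 pulses did not overlap control for 1450016_at (2022 to 2572 after 20 pulses, 1548 to 1862 in control) and for 1450017_at, where the signal was 618, 656, 634 and 691 after 20 pulses and 459, 565, 521 and 586 in control. Complete separation with higher signal was found for 5.85% of all tested probe sets. The log2 change was 0.41 (SE 0.19) for 1450016_at and 0.28 (SE 0.13) for 1450017_at (limma, adjusted p = 0.31 for both), and 0.36 (SE 0.18, limma adjusted p = 0.34) for 1420827_a_at, whose groups overlapped. When only the 8 arrays compared were fitted, 1450016_at passed (limma, adjusted p = 0.0412).

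The remaining members did not pass after 20 pulses. Sesn2 1451599_at had a log2 change of -0.43 (SE 0.14, limma adjusted p = 0.14), close to its -0.47 in Ca-free medium, with the same control arrays in both comparisons. Cdkn1a 1421679_a_at had a log2 change of 1.08 (SE 0.59, limma adjusted p = 0.40), and 1424638_at one of 0.23 (SE 0.21, limma adjusted p = 0.64). Pmaip1 had a log2 change of 0.22, Sesn2 1425139_at 0.17, Trp53inp1 0.12 and 0.05, Bbc3 -0.19, Phlda3 -0.11 and the Btg2 and tested Mdm2 probe sets between -0.03 and 0.04. The median over the 16 was 0.09, beside -0.03 for all tested probe sets.

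Ca-free medium against 20 pulses gave 2 calls among the members, both lower, where 32.6% of all tested probe sets were called and 23.4% were called lower. At an unadjusted p under 0.05 there were 3, against 44.9% of all. Phlda3 fell by 0.65 on the log2 scale (SE 0.11, limma adjusted p = 0.0016). Sesn2 1425139_at fell by 0.31 (SE 0.12, limma adjusted p = 0.049), and all its Ca-free arrays lay below the narrow range of 977 to 995 after 20 pulses. Full separation downward held for these 2 of the 16 members and for 22.2% of all tested probe sets. That call rests near the threshold and ended when any array of either group other than Ca-free array 1 was left out, with adjusted p-values of 0.0574 to 0.14 in limma. Without Ca-free array 1, Pmaip1 (-0.66), Bbc3 (-0.79) and Btg2 1416250_at (-0.38) were called lower as well. The median over the 16 was -0.15, beside -0.17 for all. With a signal minimum of 300 the median of all tested probe sets was -0.023.

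Wider lists of the pathway were read with 1 probe set a gene, the brightest tested, over which 12.3% of 13599 genes were called higher and 28.8% lower in Ca-free medium against control. Of 42 tested effector targets beyond the members, 3 rose and 9 fell. Those that rose were Ddb2 (log2 change 0.47), which senses ultraviolet damage, Rap2b (0.36), a small GTPase, and Ei24 (0.19), an endoplasmic reticulum protein. The largest falls were in Igfbp3 (-0.68), which binds insulin-like growth factors, Ak1 (-0.66), an adenylate kinase, and Lif (-0.63), the cytokine that mouse implantation needs in the uterus. Under other scalings the list gave 3 higher and 4 lower (quantile), 20 and 0 (median) and 0 and 13 (hybridization controls), so its balance follows the scaling. Rap2b, Ei24, Igfbp3, Ak1 and Lif were not called with quantile normalization, Ddb2, Rap2b and Ei24 not with the hybridization controls, and Igfbp3, Ak1 and Lif not with median scaling. Another Ddb2 probe set was called lower. Leaving out single arrays ended the calls of Rap2b (controls 1 or 3 or Ca-free arrays 2 or 4; log2 change 0.30 to 0.33) and of Igfbp3 (controls 1 or 3 or Ca-free array 4; -0.64 to -0.40).

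Of 29 tested regulators and partners of p53, 6 rose and 4 fell. Crebbp (0.59), a histone acetyltransferase that also acetylates p53, and Ppp1r13b (0.56), which encodes the apoptosis-promoting ASPP1, rose under all 4 scalings. Atm (0.43), the kinase that signals double-strand breaks, rose with the trimmed mean but was not called with the hybridization controls. Trp63 (-0.87), the p53 family member of epithelia, and Ppp1r13l (-0.60), which encodes the inhibitory iASPP, fell under all 4 scalings. Cdkn2a (-0.60), whose product ARF restrains Mdm2, fell but was dim, averaging 82.3 ± 4.61 (SD, n = 4) on Ca-free arrays against 142 ± 19.7 (SD, n = 4) on control arrays, and was not called with quantile or median scaling. Ppp1r13l averaged 746 ± 18.02 in Ca-free medium, 1012 ± 61.2 after 20 pulses and 1149 ± 57.4 in control (SD, n = 4 each). The list gave 4 higher and 2 lower with quantile normalization, 20 and 2 with median scaling and 2 and 12 with the hybridization controls.

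Genes that p21 is known to repress through the DREAM complex are mostly mitotic genes. Of 23 tested, 5 rose and 1 fell. Mki67 (0.45), a proliferation marker, and Nek2 (0.45), a centrosome kinase, rose under all 4 scalings, and Cdc25c (0.48), the mitotic phosphatase, did under all but the hybridization controls. Mybl2 fell (-0.22), and with median scaling its change was 0.19; without control 4 it was -0.17 and not called. Nek2 averaged 3866 ± 234 in Ca-free medium, 2739 ± 209.6 after 20 pulses and 2819.9 ± 58.8 in control (SD, n = 4 each), and 1 of its 3 other probe sets was called lower. Against 20 pulses, 11 of the 23 rose and 0 fell in Ca-free medium, where 11.2% of all tested genes were called higher and 20.99% lower. There the scaling decided the direction, with 3 higher and 0 lower by quantile normalization, 21 and 0 by median scaling, and 0 and 7 by the hybridization controls.

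ATF4 and CHOP are stress factors that are known to induce Sesn2, Bbc3 and Pmaip1 as p53 does. Of 15 tested genes in the list of their targets, which includes Atf4 itself and Ddit3, the CHOP gene, 0 rose and 4 fell. Nupr1 (-1.28), Ppp1r15a (-0.64), which encodes the phosphatase subunit GADD34, and Atf4 (-0.50) fell most. Atf4 and Ppp1r15a were not called with median scaling, and Nupr1 was under the signal minimum with quantile and median scaling. Of 18 tested genes of double-strand break repair, Brca1 (0.36) and Rnf168 (0.29) rose and none fell, both without a call under the hybridization controls, and 2 other Brca1 probe sets were called lower. Brca1 was not called without control 3 (0.29), control 4 (0.34) or Ca-free array 2 (0.28). After 20 pulses none of the genes in these 5 lists was called in limma with the trimmed mean, where 0.75% of genes were called higher and 0.331% lower. With the hybridization controls 3 effector targets, 5 regulators, 1 DREAM target and 3 repair genes were called higher, and with quantile normalization 1 effector target was. Without control 1, 1 DREAM target was called lower. At an unadjusted p under 0.05 there were 5 of 42 effector targets, 8 of 29 regulators, 8 of 23 DREAM targets, 4 of 15 ATF4 and CHOP targets and 3 of 18 repair genes, against 15.3% of all tested genes.

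**Figure D4:**
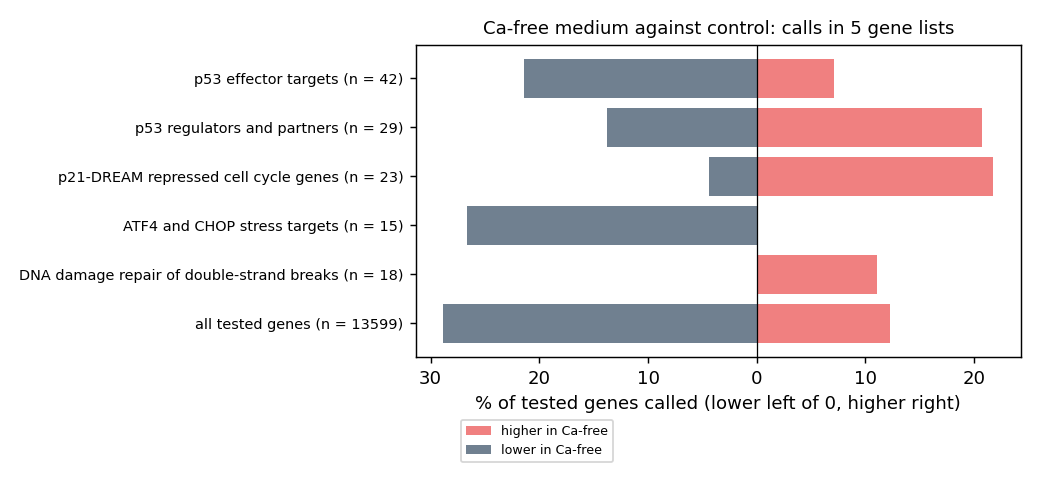
Bars give the percent of tested genes called higher (right of 0) or lower (left of 0) in Ca-free medium against control by limma, for 5 gene lists and for all 13599 tested genes. No bar for a list reaches further left than that of all genes (28.8%), and the lists of regulators and of DREAM targets reach furthest to the right, at 20.7% and 21.7%. The lists and all genes were not matched by signal.

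The order within the Ca-free group was also frequent among the wider effector targets, and more so among the ATF4 and CHOP targets. Arrays 1 and 4 were both above arrays 2 and 3 in 20 of the 42 (47.6%) and below in 9, where 26.6% and 26.2% of all tested genes had these orders. The lists were chosen with this split already known, so these shares do not test it. The largest ratios, chosen after their values were seen, were 3.07 for Zmat3, an RNA-binding p53 target, 2.57 for Plk2, a polo-like kinase, 2.35 for Gadd45a, a growth arrest gene, and 1.95 for Ercc5, a nuclease of excision repair. The same order held in 9 of 15 ATF4 and CHOP targets (60%), with the reverse in 1. It held in 7 of 29 regulators (24.1%), 7 of 23 DREAM targets (30.4%) and 5 of 18 repair genes (27.8%). In these 3 lists the reverse held in 13, 2 and 4. The median ratio was 1.14 for the effector targets and 1.12 for the ATF4 and CHOP targets, against 1.00 for all genes.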

How the data were processed

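Per the submitters' processing notes, MAS5 (no version stated) made the deposited values; per the labels, RNA from a PicoPure kit was labelled as biotin cRNA with an Affymetrix small-sample assay. The deposited table holds linear intensity values, already scaled by the authors to a common trimmed mean per array. These intensities were rescaled to a 2% trimmed mean of 500, 32 was added and log2 was taken. Testing was limited to probe sets averaging 100 or more across the 12 arrays and used limma 3.58.1 in R 4.3.3 (all 12 arrays in 1 model, eBayes with intensity trend), at a Benjamini-Hochberg adjusted p under 0.05. The platform annotation paired 34945 probe sets with 1 gene, 932 with several and 9160 with none, and 34741 symbols were matched to RefSeq. The sources used here name no build for it. The members, the wider lists and the alternatives were chosen with earlier results of these data known, among them the split of the Ca-free arrays. All members were named, and of each wider list the 3 largest called changes each way. The scripts were tested on simulated data. Motif searches used Python.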

Additional observations from a re-analysis of the deposited data

Results flagged for a closer look

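Among the 51 groups of 4 arrays checked (17 probe sets in 3 groups), 1 array stood far from its group. Sesn2 1451599_at was lowest on Ca-free replicate 4, at 447, with the other Ca-free arrays between 528 and 543. Chance sets apart about 1 in 20 groups.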

How the results depend on the processing

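Against control, the 3 calls among the members in Ca-free medium became 1 at an adjusted p under 0.01 and 1 with quantile normalization, 6 with median scaling (5 higher, 1 lower), 6 with hybridization control scaling (all lower), 8 with Ca-free arrays 1 and 4 only and 7 with Ca-free arrays 2 and 3 only, and lay between 2 and 4 when single arrays were left out. After 20 pulses the count was 0, also with each array left out, and 1 when only the 8 arrays compared were fitted. Against 20 pulses, the 2 calls in Ca-free medium became 1 at an adjusted p under 0.01, with quantile normalization, with no filter, with no intensity trend and with only the 8 arrays, 12 with hybridization control scaling, 4 with Ca-free arrays 1 and 4 only and 10 with Ca-free arrays 2 and 3 only, and lay between 1 and 5 when single arrays were left out. The Ca-free pairs were picked from the arrays' own values, so fits with a single pair restate that split and test nothing. Among changes that were called in either setting, directions turned for Ccng1 1450016_at against control (-0.38 with Ca-free arrays 2 and 3 only), Cdkn1a 1424638_at against 20 pulses (0.47 with Ca-free arrays 1 and 4 only) and Sesn2 1425139_at against 20 pulses (0.049 with median scaling). Over all changes, called or not, more turned sign. With median scaling 7 of the 16 did in Ca-free medium against control, among them Mdm2 (0.26 and 0.24), Pmaip1 (0.14), Sesn2 1425139_at (0.25) and both Btg2 probe sets (0.08 and 0.26), 2 did after 20 pulses and 10 did against 20 pulses. With quantile normalization the counts were 3, 1 and 5, and with hybridization control scaling 2, 3 and 2. The 5 members called higher against control with median scaling were Cdkn1a 1424638_at, Trp53inp1 1416926_at and the Ccng1 probe sets. The causes were not tested. With replicate number as a block (replicate block), the counts were 3, 0 and 2, with Bbc3 called (adjusted p = 0.0271, limma) and Sesn2 1425139_at not (adjusted p = 0.0556, limma) against 20 pulses. Same-numbered arrays of different groups correlated with a mean r of 0.0156, against -0.00521 for other numbers, so the numbers were not taken as pairs. The count of 13 probe sets with Ca-free arrays 1 and 4 above 2 and 3 was recomputed under 3 scalings added after the data were seen. Values near the signal minimum, as for Mdm2 1457929_at, carry no detection call here.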
